A study of Mus musculus with 5 samples.

Results

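The genes described are 8 small leucine-rich proteoglycans, taken by symbol from the list Fmod, Lum, Dcn, Bgn, Ogn, Prelp, Aspn and Podn, out of 17818 symbols in a table of 5 mouse heart libraries. All 8 symbols were found. The study's title names the question of how oridonin, a plant diterpenoid, acts on the heart in a mouse model of clonal hematopoiesis, in which blood cells with a mutation in Tet2 expand. Every animal was male and had received a bone marrow transplant, and hearts were taken 12 months later, with 2 months of treatment whose start the labels do not give. The groups were Tet2+/- with oridonin (Tet2 oridonin, 2 libraries), Tet2+/- with vector (Tet2 vector, 2 libraries) and wild type with vector (WT vector, 1 library). The labels give no donor or host strain, dose or age, and do not say whether the Tet2 label refers to the marrow alone. The sample titles carry 1 month or 2 months where another label gives 2 months throughout, so that number served as a replicate number only.

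Small leucine-rich proteoglycans are secreted proteins built from leucine-rich repeats that sit on collagen fibrils and set how thick and how evenly spaced the fibrils become. Many carry a chondroitin, dermatan or keratan sulfate chain. Some also act as signals: decorin and biglycan bind TGF-beta, and soluble biglycan is read by Toll-like receptors. In the heart their mRNA comes mainly from fibroblasts, and they are known to accumulate in fibrosis. By structure, decorin (Dcn), biglycan (Bgn) and asporin (Aspn) form class I, fibromodulin (Fmod), lumican (Lum) and Prelp class II, osteoglycin (Ogn) class III and podocan (Podn) class V.

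Most of the family lies in clusters. In GRCm38, the build that mm10 names, Dcn (chr10:97479609-97518143, plus strand) and Lum (chr10:97565128-97572703, plus) are neighbours, 47.3 kb apart by RefSeq bounds. Aspn (chr13:49544443-49567565, plus) and Ogn (chr13:49608046-49624501, plus) belong to a row of 4 family genes with Ecm2 and Omd. That row lies inside the gene Cenpp, a centromere protein gene on the opposite strand. Prelp (chr1:133910304-133921414, minus) and Fmod (chr1:134037254-134048277, plus) flank a gap of 107 kb by RefSeq bounds, with the eye proteoglycan gene Optc next to Prelp. Bgn (chrX:73483602-73495933, plus) and Podn (chr4:108014791-108096445, minus) stand apart from these clusters. RefSeq gives Podn a shorter span, chr4:108014793-108031954, whose 5′ end was used for the promoter below. The longer span overlaps the gene Scp2 on the same strand, with 0 shared exon bases.

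The promoters of the 3 members that differed most between groups, and of the 1 member whose groups overlapped in both main comparisons, are shown because these genes frame the results. Each runs 5′ to 3′ on the gene's strand from 250 bases before to 50 bases after a RefSeq start, and capitals mark matches to the motifs named beneath. The regions are chr1:134037004-134037303 for Fmod, chr13:49544193-49544492 for Aspn, chr13:49607765-49608064 for Ogn and chr4:108031905-108032204 for Podn, the last on the minus strand (RefSeq, GRCm38.p6).
Fmod: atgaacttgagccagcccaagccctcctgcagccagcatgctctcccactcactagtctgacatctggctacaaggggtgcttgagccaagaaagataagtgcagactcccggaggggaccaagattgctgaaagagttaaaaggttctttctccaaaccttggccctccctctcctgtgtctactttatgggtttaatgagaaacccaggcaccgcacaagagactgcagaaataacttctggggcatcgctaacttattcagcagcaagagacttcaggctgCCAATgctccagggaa
Aspn: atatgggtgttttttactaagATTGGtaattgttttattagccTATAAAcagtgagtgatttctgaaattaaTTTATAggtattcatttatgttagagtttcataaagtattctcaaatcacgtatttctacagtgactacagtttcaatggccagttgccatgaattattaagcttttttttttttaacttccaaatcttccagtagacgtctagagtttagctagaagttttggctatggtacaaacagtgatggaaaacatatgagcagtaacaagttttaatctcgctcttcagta
Ogn: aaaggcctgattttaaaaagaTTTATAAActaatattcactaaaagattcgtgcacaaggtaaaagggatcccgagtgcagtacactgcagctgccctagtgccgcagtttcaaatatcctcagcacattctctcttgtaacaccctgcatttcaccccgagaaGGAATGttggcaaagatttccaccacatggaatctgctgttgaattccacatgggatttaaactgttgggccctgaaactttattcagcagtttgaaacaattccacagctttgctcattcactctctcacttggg
Podn: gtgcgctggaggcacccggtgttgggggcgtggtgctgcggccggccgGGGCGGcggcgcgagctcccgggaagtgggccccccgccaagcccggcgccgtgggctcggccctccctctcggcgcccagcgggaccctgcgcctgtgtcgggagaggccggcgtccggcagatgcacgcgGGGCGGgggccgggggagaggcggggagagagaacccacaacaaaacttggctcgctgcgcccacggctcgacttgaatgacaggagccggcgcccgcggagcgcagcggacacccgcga

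The 4 sequences differ in base composition. Podn had 77% G and C with 41 CpG dinucleotides, a count that 97.0% of 32851 promoters of this length do not exceed. Fmod held 3 CpG at 51% G and C, Aspn 3 at 31% and Ogn 4 at 42.3%, against a median of 7 over all promoters. Of the other members with a promoter in the table, Bgn had 9 and Prelp 7. The motifs searched, on both strands, were the TATA box TATAAA, the CCAAT box CCAAT, the GC box GGGCGG, the AP-1 motif TGANTCA, the TEAD motif GGAATG, the CAGA box CAGACA bound by Smad proteins, and the CArG box. Fmod held 1 CCAAT box, in the transcribed part. Aspn held 2 TATA boxes and 1 CCAAT box, all far upstream of the start, and Ogn 2 TATA boxes that overlap each other and 1 TEAD motif. Podn held 2 GC boxes. Of all promoters, 13.6% hold the TATA box, 37.4% the CCAAT box, 35.7% the GC box and 14.7% the TEAD motif. The AP-1 motif (7.81% of promoters), the CAGA box (21.0%) and the CArG box (1.63%) were not found in these 4 windows.

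Levels are given as CPM, a gene's count scaled to a common library total, after a mix of replicate columns in the deposited table had been undone. Library totals ran from 14574828 to 15535785 counts. Heart muscle genes were expressed in every library, with 0 of 9 markers at 0 counts and summed levels of 55799 and 59927 CPM in Tet2 oridonin, 55088 and 50641 CPM in Tet2 vector and 48088 CPM in WT. Tet2 vector replicate 1 stood apart by atrial markers: the 8 listed genes (Nppa, Myl4, Myl7 and others) summed to 1169 CPM there, against 121 CPM in replicate 2, 58.6 and 48.6 CPM in the oridonin libraries and 84.9 CPM in WT. Values without it stand beside the members and several gene lists. Atrial, fat cell and nerve markers, the lists whose medians it moved most, are given by sums in each library. The WT group has 1 library and no replicate, and nothing in the labels says that replicates came from separate animals, so p-values measure the spread between these libraries.

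**Figure D1:**
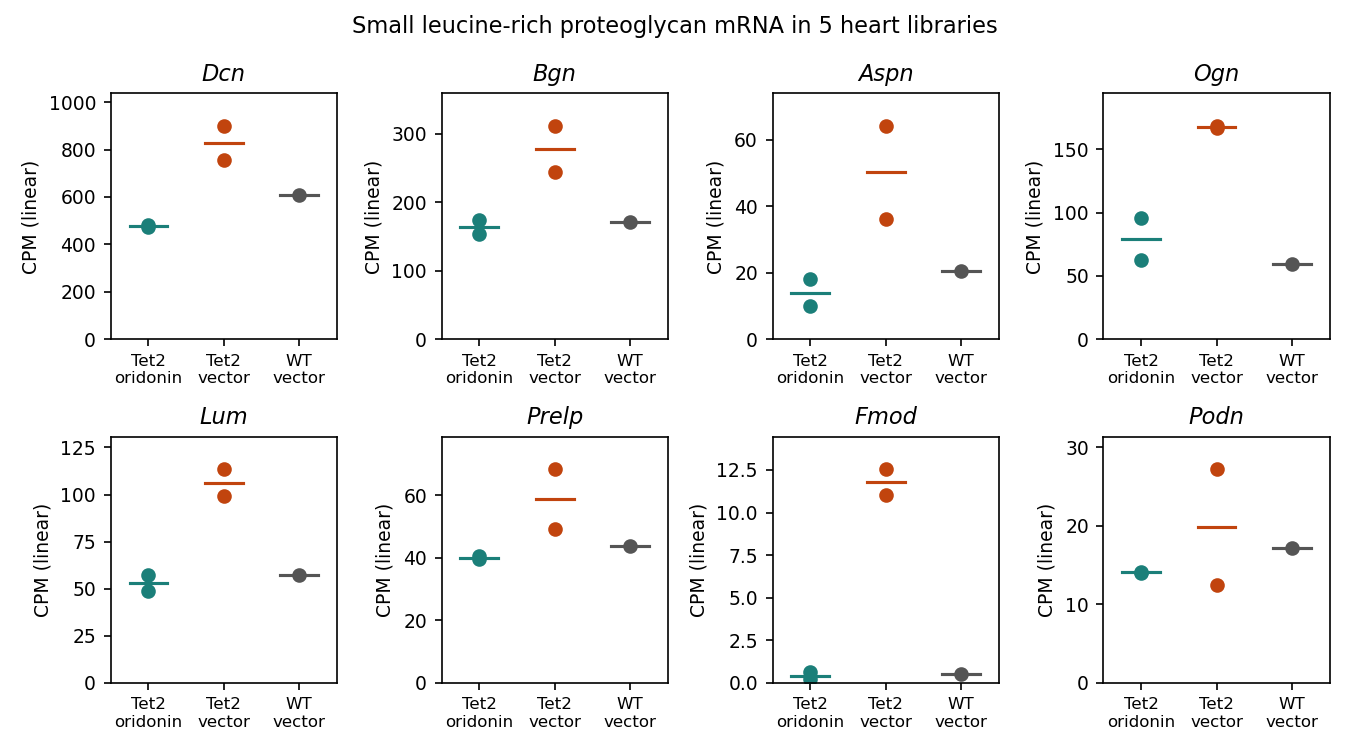
CPM of the 8 members in each library on linear axes that start at 0, with points for libraries and a line for each group's mean. In 7 of the 8 panels, all but Podn, both Tet2 vector points lie above both Tet2 oridonin points and above the WT point. Of all tested genes, 17.8% lie above oridonin in this way and 35.4% above WT. The share that does both was not computed.

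Within the family, decorin mRNA was by far the most abundant. Per kilobase of the principal transcript it stood at 269 and 274 CPM in Tet2 oridonin, 431 and 513 CPM in Tet2 vector and 346 CPM in WT. That was 62.9% to 70.6% of the summed per-kilobase level of the 8 genes in every library. Bgn came second in all 5 libraries, with 14.5% to 16.7%. Ogn and Lum were next and close to each other. Ogn was at 24.3 and 37.4 CPM per kilobase in Tet2 oridonin, 65.8 and 64.9 in Tet2 vector and 23.3 in WT. Lum was at 20.0 and 23.5, 46.4 and 40.5, and 23.3 CPM per kilobase in the same order of groups. In the oridonin libraries the gap between the means of these neighbours was smaller than the gap between the Ogn replicates, and in WT their levels were equal to 3 digits. Prelp, Aspn and Podn followed with 0.490% to 3.44% each, in an order that changed between libraries, and Fmod was last at 0.0166% to 0.587%. The places of all members but Dcn and Prelp depend on the length used: over all annotated exons Bgn ranked 2 to 4. In Tet2 vector replicate 2, Fmod then ranked 7 and Podn 8.

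**Figure D2:**
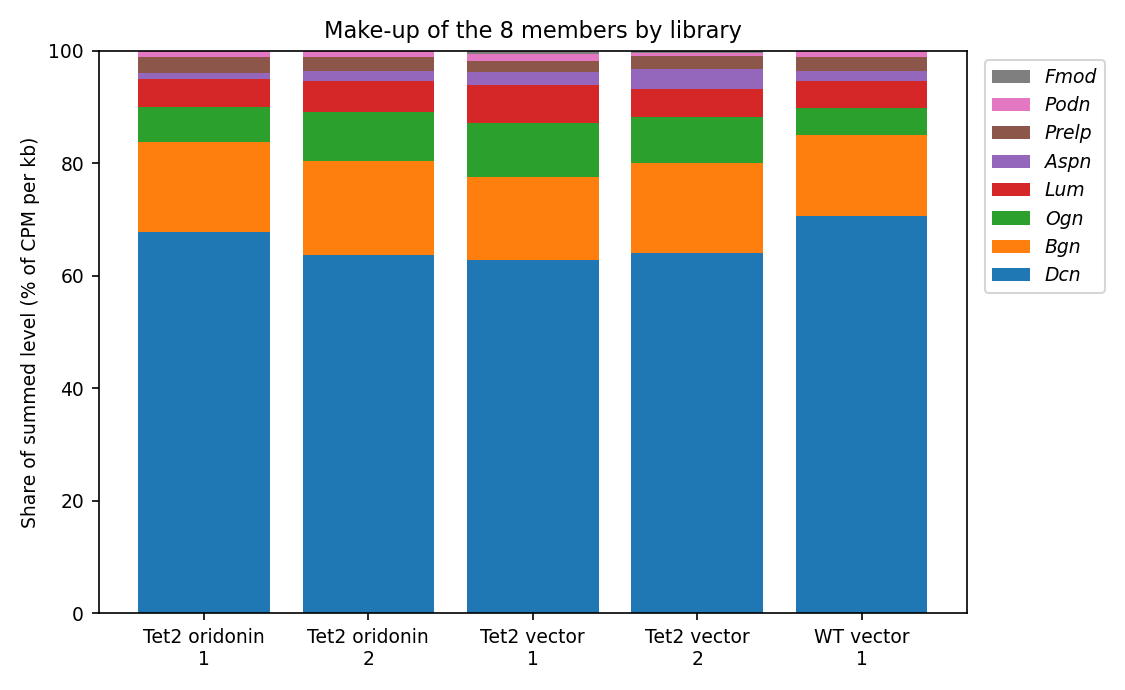
Share of each member in the summed CPM per kilobase of the 8 genes, stacked to 100% for each library. Dcn fills 62.9% to 70.6% of every bar, while Ogn takes 6.12% and 8.69% in Tet2 oridonin, 9.59% and 8.11% in Tet2 vector and 4.75% in WT.

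The first comparison asked what oridonin did to these genes in Tet2 hearts. The 8 members were lower with oridonin, with a median log2 fold change of -0.90 against -0.05 over all 12734 tested genes. In 7 of 8 both oridonin libraries lay below both vector libraries, where 17.8% of tested genes do so and 8.37% lie above. None passed a false discovery rate (FDR) of 0.05: limma called 0 of 12734 genes (0%), and 0 with voom weights. An unadjusted p under 0.05 was seen for 331 genes, where 637 would be expected in each comparison if no gene differed. At that unadjusted level 6 of 8 members were lower, against 1.93% of tested genes lower and 0.668% higher. All 8 passed the filter on low values, but Fmod did so through the Tet2 vector libraries alone, the group in which it is high.

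Decorin, which binds collagen fibrils and TGF-beta, was at 472 and 482 CPM in Tet2 oridonin hearts, against 758 and 901 CPM in Tet2 vector hearts. The replicates differed by 0.029 on the log2 scale in Tet2 oridonin and by 0.25 in Tet2 vector, and the groups did not overlap. The log2 fold change was -0.79 with a standard error (SE) of 0.16 (limma, adjusted p = 1.00). Biglycan, a class I relative that can also signal to immune cells, was at 154 and 174 CPM with oridonin, against 244 and 312 CPM with vector. Here too the groups did not overlap, with a log2 fold change of -0.75 (SE 0.19; limma, adjusted p = 1.00). Asporin, a class I member with a run of aspartate that carries no sulfate chain, was at 9.91 and 18.2 CPM with oridonin, against 36.2 and 64.2 CPM with vector. Its replicates differed widely in both groups, by 0.87 and 0.83 on the log2 scale, yet every oridonin value was below every vector value. The log2 fold change of Aspn was -1.84 (SE 0.39; limma, adjusted p = 1.00).

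In class II, fibromodulin showed the widest gap of the family. Fmod, which shares a binding site on collagen with lumican and guides fibril assembly and crosslinking, had 3 and 9 counts in the Tet2 oridonin libraries (0.205 and 0.618 CPM), against 195 and 169 counts in Tet2 vector (12.6 and 11.0 CPM). Its oridonin values were close to the floor of 3 counts. Summed and scaled to depth, the vector libraries held 28.7 times as much (exact 95% interval 16.2 to 56.0, which covers counting error only). The log2 fold change was -4.90 (SE 0.59; limma, adjusted p = 0.394), and the adjusted p was 0.998 with no filter on low values. Lumican, a keratan sulfate carrier, was at 48.9 and 57.5 CPM with oridonin, against 114 and 99.2 CPM with vector. The log2 fold change of Lum was -1.001 (SE 0.19; limma, adjusted p = 1.00). Prelp, which anchors basement membranes to collagen, was at 40.4 and 39.6 CPM with oridonin, against 49.1 and 68.3 CPM with vector. Its groups did not overlap, but the 95% interval of its log2 fold change ran from -1.07 to 0.0032. Prelp had a log2 fold change of -0.53, and -0.30 without Tet2 vector replicate 2.

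Osteoglycin, the class III member, was at 62.3 and 95.9 CPM in Tet2 oridonin hearts, against 169 and 167 CPM in Tet2 vector hearts. The vector replicates were nearly equal and both stood well above the oridonin pair, with a log2 fold change of -1.12 (SE 0.24; limma, adjusted p = 1.00). Podocan, the class V member, was at 14.0 and 14.1 CPM with oridonin, against 27.2 and 12.5 CPM with vector. The oridonin values fell between the vector values, so the groups overlapped. The vector replicate with 27.2 CPM is the library rich in atrial markers. Without that library the log2 fold change of Podn was 0.18, in place of -0.39 (95% interval -1.32 to 0.54) with it. For the other 7 members the values without that library ran from -4.81 for Fmod to -0.77 for Prelp, and the median of the 8 was -0.92. The part of atrial tissue in these differences was not tested.

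The second comparison set Tet2 vector hearts against the WT heart and shares the Tet2 vector libraries with the first, so a high vector value enters both with opposite sign. The 8 members were higher in Tet2 vector, with a median log2 fold change of 0.79 against 0.00 over all tested genes. In 7 of 8 both vector libraries lay above the WT library, where 35.4% of tested genes do so and 32.3% lie below. Limma called 0 of 12734 genes (0%) at an FDR of 0.05, with 1221 at an unadjusted p under 0.05 and 0 with voom weights. Of the members, 5 of 8 were higher at that unadjusted level, against 5.06% of tested genes higher and 4.53% lower.

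Fmod had 195 and 169 counts in Tet2 vector and 7.74 in WT (0.516 CPM), where the fraction comes from the mix in that column. The log2 fold change was 4.43 (SE 0.72; limma, adjusted p = 0.309). Ogn followed, at 169 and 167 CPM in Tet2 vector and 59.7 CPM in WT, with a log2 fold change of 1.49 (SE 0.29; limma, adjusted p = 0.324). Both vector values of each gene lay far above the single WT value. Aspn was at 36.2 and 64.2 CPM in Tet2 vector and 20.5 CPM in WT, a log2 fold change of 1.23 (SE 0.48; limma, adjusted p = 0.511). Lum stood at 114 and 99.2 CPM in Tet2 vector and 57.1 CPM in WT, a log2 fold change of 0.89 (SE 0.23; limma, adjusted p = 0.394). The 2 most abundant members differed less: Bgn was at 244 and 312 CPM in Tet2 vector and 171 CPM in WT (log2 fold change 0.69, SE 0.23). Dcn was at 758 and 901 CPM in Tet2 vector and 608 CPM in WT, and its log2 fold change of 0.44 had a 95% interval from -0.02 to 0.91. For Prelp, at 49.1 and 68.3 CPM in Tet2 vector and 43.7 CPM in WT, the interval also held 0, from -0.25 to 1.07. Its log2 fold change was 0.41 here, 0.65 without Tet2 vector replicate 1 and 0.17 without replicate 2. Podn was at 27.2 and 12.5 CPM in Tet2 vector, on either side of 17.2 CPM in WT. Its log2 fold change was 0.10, and -0.46 without the library rich in atrial markers. Without that library Aspn was at 1.65, Bgn at 0.87, Dcn at 0.57 and Lum at 0.80 on the same scale, and the median of the 8 was 0.83. Leaving out replicate 2 instead, Aspn was at 0.82 and Podn at 0.66.

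**Figure D3:**
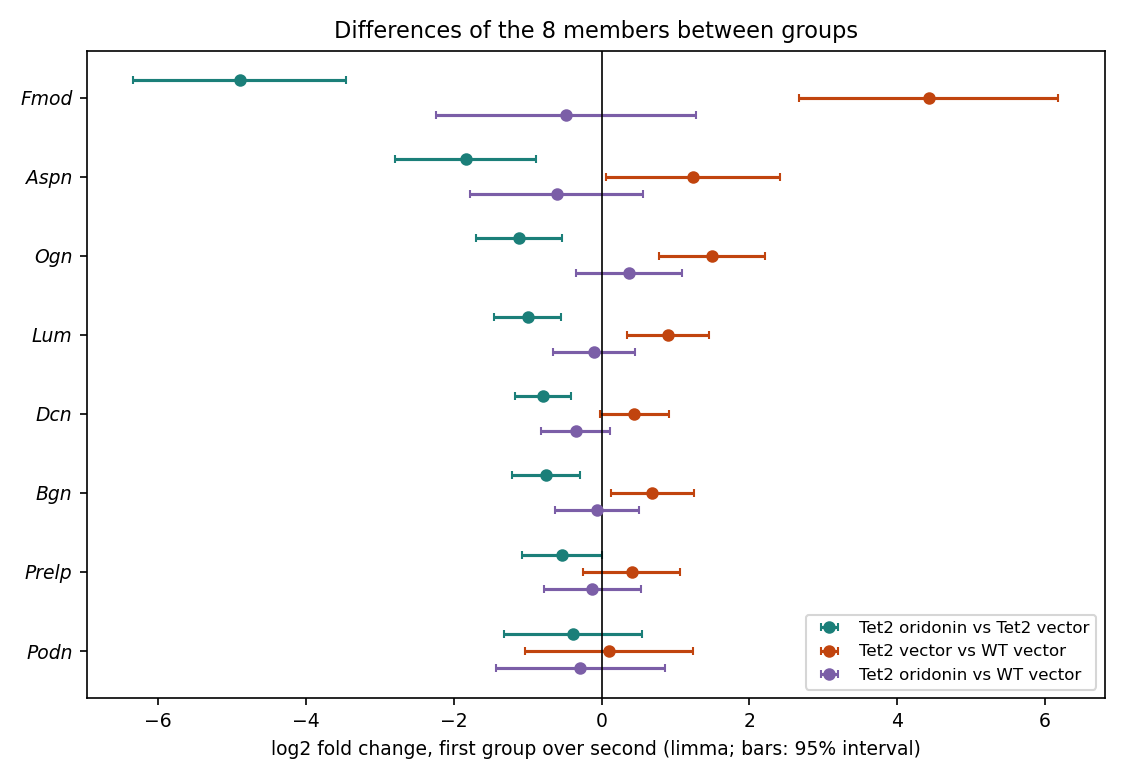
Log2 fold changes of the 8 members in the 3 comparisons (limma), each as the first named group over the second, with points for estimates and bars for 95% intervals. Fmod lies at -4.90 for Tet2 oridonin against Tet2 vector and 4.43 for Tet2 vector against WT, and the intervals of Prelp and Podn hold 0 in all 3.

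In the third comparison, Tet2 oridonin hearts against the WT heart, the members lay near the WT level. Their median log2 fold change was -0.21 against -0.06 over all tested genes, and every 95% interval held 0. Limma called 0 of 12734 genes (0%), with 791 at an unadjusted p under 0.05 and 0 with voom weights. No member reached that unadjusted level, against 2.69% of tested genes higher and 3.53% lower. Both oridonin libraries lay below WT for 4 of 8 members (Dcn, Aspn, Prelp and Podn), where 41.7% of tested genes do so, and above it for Ogn, where 31.9% do. The intervals do not show equality: that of Ogn ran from -0.35 to 1.09 and that of Fmod, with 3 and 9 counts against 7.74, from -2.23 to 1.28. For Dcn, the interval ran from -0.82 to 0.12. The directions for Bgn and Lum reversed when genes of the mitochondrial genome were left out of the library total, to 0.048 and 0.0038.

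The clusters were then followed gene by gene. On chromosome 10, Dcn and Lum differed between oridonin and vector by -0.79 and -1.001 on the log2 scale. Epyc, a cartilage member of the same cluster, had 0 and 0 counts in Tet2 oridonin, 14 and 1 in Tet2 vector and 1 in WT, so that its vector counts lie almost wholly in the library rich in atrial markers. On chromosome 13 the 4 family genes were all lower with oridonin. Ecm2 was at 24.1 and 23.8 CPM in Tet2 oridonin, against 40.8 and 48.4 CPM in Tet2 vector (log2 fold change -0.89, SE 0.19). Omd, known from bone, had 1 and 12 counts in Tet2 oridonin, against 20 and 46 in Tet2 vector. Cenpp, the gene that spans this row on the other strand, was at 1.09 and 1.78 CPM in Tet2 oridonin, 1.03 and 0.913 CPM in Tet2 vector and 1.63 CPM in WT. Its level is small beside those of Aspn and Ogn, and its exons share 7 bases with those of Aspn and 0 with those of Ogn. The part of Cenpp reads in the counts of Aspn and Ogn was not tested. Nol8, the next gene after Ogn, was at 5.33 and 15.0 CPM in Tet2 oridonin, against 16.2 and 14.3 CPM in Tet2 vector, with oridonin values on both sides of the lower vector value. On chromosome 1, the neighbours of Fmod differed far less than its -4.90. Prelp differed by -0.53. Btg2, an antiproliferative gene, was at 29.0 and 25.6 CPM in Tet2 oridonin, against 17.1 and 24.5 CPM in Tet2 vector. Optc had at most 3 counts in any library. An unstranded count could add reads of an antisense transcript that covers 350 bases of Prelp exons, since the labels do not say whether strand was kept.

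**Figure D4:**
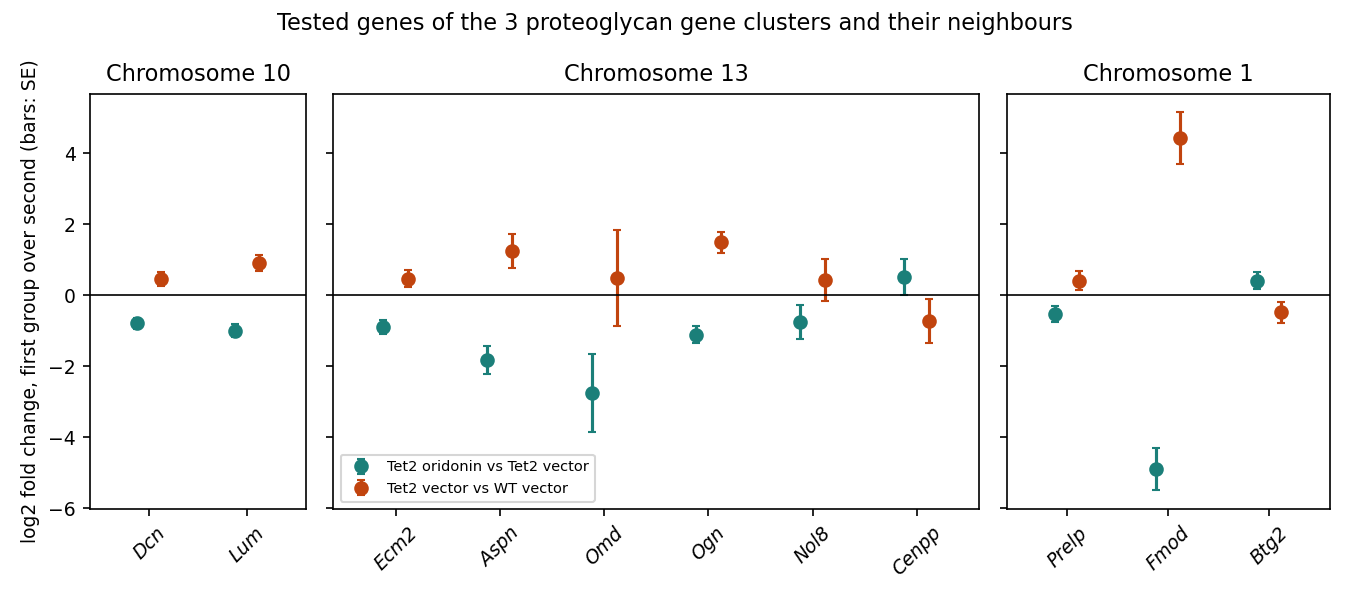
Log2 fold changes of the tested genes in the clusters on chromosomes 10, 13 and 1 and of their neighbours, in genome order except Cenpp, which spans the chromosome 13 row. Points are limma estimates and bars their SE, for Tet2 oridonin over Tet2 vector and for Tet2 vector over WT. Fmod lies far from Prelp and Btg2, and Ecm2, Aspn, Omd and Ogn lie below 0 for oridonin over vector while Cenpp lies above.

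Beside Ecm2, the remaining family genes were at 4.51 CPM or less in every library. Of 10 further genes listed, 9 were in the table and 5 passed the filter, of which 0 passed the FDR. All 5 were lower with oridonin than with vector, with a median log2 fold change of -0.46, and 4 were higher in Tet2 vector than in WT, with a median of 0.48. Without Tet2 vector replicate 1 the first median was -0.29. Beside Ecm2 and Omd these were Tsku, at 3.49 and 2.74 CPM in Tet2 oridonin, 4.51 and 3.78 CPM in Tet2 vector and 2.73 CPM in WT, Nyx at 0.549 to 1.07 CPM and Chadl at 0.849 to 1.76 CPM. Chad had 5 to 9 counts and Podnl1 at most 2.

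The collagens that these proteoglycans bind were counted next. Of 11 tested collagen genes, 10 were lower in Tet2 oridonin than in Tet2 vector, with a median log2 fold change of -0.77, and 10 were higher in Tet2 vector than in WT, with a median of 0.88 (0 past the FDR in both). Without Tet2 vector replicate 1 the medians were -0.64 and 0.83. Col1a2 was at 78.1 and 76.8 CPM in Tet2 oridonin, 163 and 154 CPM in Tet2 vector and 86.2 CPM in WT. Col12a1 and Col14a1, collagens that decorate the fibril surface as these proteoglycans do, showed wider gaps. Col12a1 was at 0.820 and 0.823 CPM in Tet2 oridonin, 4.25 and 6.65 CPM in Tet2 vector and 1.02 CPM in WT. Col14a1 was at 6.15 and 10.3, 31.1 and 23.9, and 11.7 CPM in the same groups.

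For the enzymes that build the sulfate chains the medians lay closer to 0. Of all 12734 tested genes, 7614 were lower with oridonin than with vector, to be set beside the counts of lower genes here. Of 21 tested genes for the linker and for chondroitin or dermatan sulfate, 13 were lower and 8 higher with oridonin than with vector, with a median log2 fold change of -0.06, and in Tet2 vector against WT the median was 0.12. Dsel and Dse, epimerases that turn chondroitin into dermatan sulfate, were at 3.15 and 5.49 CPM and at 5.54 and 6.998 CPM in Tet2 oridonin, against 6.63 and 6.65 CPM and 8.17 and 8.22 CPM in Tet2 vector. Of 6 tested keratan sulfate genes, 5 were higher with oridonin, with a median of 0.14. Among 18 receptors and ligands 13 were lower with oridonin (median -0.28), and 11 without Tet2 vector replicate 1 (median -0.10). The receptor gene Egfr, which decorin can bind, was at 5.33 and 5.76 CPM in Tet2 oridonin, 9.91 and 8.87 CPM in Tet2 vector and 10.6 CPM in WT. Tlr4, a receptor for soluble biglycan, was at 9.71 and 13.4 CPM in Tet2 oridonin, 13.7 and 7.56 CPM in Tet2 vector and 20.3 CPM in WT. Of 9 tested genes for cleavage 7 were lower with oridonin (median -0.27). Mmp2, a gelatinase, was at 49.0 and 43.8 CPM in Tet2 oridonin, against 68.4 and 95.1 CPM in Tet2 vector. Pcolce, an enhancer of procollagen cleavage, stood at 51.3 and 49.1 CPM in Tet2 oridonin, 62.3 and 68.1 CPM in Tet2 vector and 30.0 CPM in WT. In these 4 lists 0 genes passed the FDR in any of the 3 comparisons.

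Fibroblasts are the main source of these mRNAs, so their markers were set beside the members. In a heart library, fewer fibroblasts and less RNA per fibroblast cannot be told apart. Of 15 fibroblast markers that are neither members nor collagens, 15 were lower in Tet2 oridonin than in Tet2 vector, with a median log2 fold change of -0.67. Without Tet2 vector replicate 1, 11 of 15 were lower, with a median of -0.46. Their summed levels were 2099 and 1939 CPM in Tet2 oridonin, 3178 and 2934 CPM in Tet2 vector and 3144 CPM in WT, with 0 of 15 at 0 counts in any library. Against WT, 9 of 15 were higher in Tet2 vector, with a median of 0.07 (7 of 15 and -0.06 without replicate 1), while the median of the members was 0.79. Per library, the median difference from WT was -0.26 and -0.07 for the members and -0.37 and -0.35 for fibroblast markers in Tet2 oridonin, and 0.74 and 0.83 for the members and 0.20 and -0.06 for the markers in Tet2 vector. Dpt, a matrix gene on the marker list, was at 80.3 and 71.2 CPM in Tet2 oridonin, 150 and 126 CPM in Tet2 vector and 84.0 CPM in WT. Gsn, an actin-severing protein gene, was at 1178 and 1005, 1682 and 1691, and 1944 CPM in the same groups. Over 8 tested activated fibroblast genes the median log2 fold change was -1.55 for oridonin over vector and 1.37 for vector over WT. Without Tet2 vector replicate 1 the medians were -1.43 and 1.47. Of the 8, 7 were lower with oridonin than with vector, and 7 were higher in Tet2 vector than in WT. Postn was at 30.6 and 29.3, 87.0 and 141, and 35.8 CPM in the same groups. Fap went the other way in both comparisons, at 2.67 and 3.50, 3.15 and 2.87, and 3.70 CPM. Cilp was at 12.9 and 12.7, 19.6 and 117, and 45.2 CPM, with vector values on both sides of WT.

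Set against the mean log2 level of the fibroblast markers in the same library, the members split. For oridonin against vector, Fmod (-4.29), Aspn (-1.23), Ogn (-0.51) and Lum (-0.39) were lower by these log2 differences without overlap of the groups, where 1.12% of tested genes are lower and 72.8% higher on this scale. Dcn (-0.18), Bgn (-0.14), Prelp (0.08) and Podn (0.22) overlapped. For Tet2 vector against WT, 6 of 8 members lay above the WT ratio in both libraries, from 4.28 for Fmod and 1.35 for Ogn to 0.30 for Dcn, where 25.5% of tested genes do so. Prelp and Podn did not. Set against the collagens instead, the log2 differences of oridonin from vector were -3.98 for Fmod and -0.92 for Aspn, again without overlap, and between -0.20 and 0.53 for the other 6, of which Prelp (0.38) was higher without overlap. On that scale 0.401% of tested genes were lower and 87.1% higher without overlap. For Tet2 vector against WT the collagen ratio gave another picture. Fmod (3.47) and Ogn (0.53) lay above WT in both libraries, where 3.64% of tested genes do so. Dcn (-0.51), Bgn (-0.27), Prelp (-0.55) and Podn (-0.85) lay below it, as did 89.5% of tested genes, while Aspn and Lum overlapped. These ratios carry no test.

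**Figure D5:**
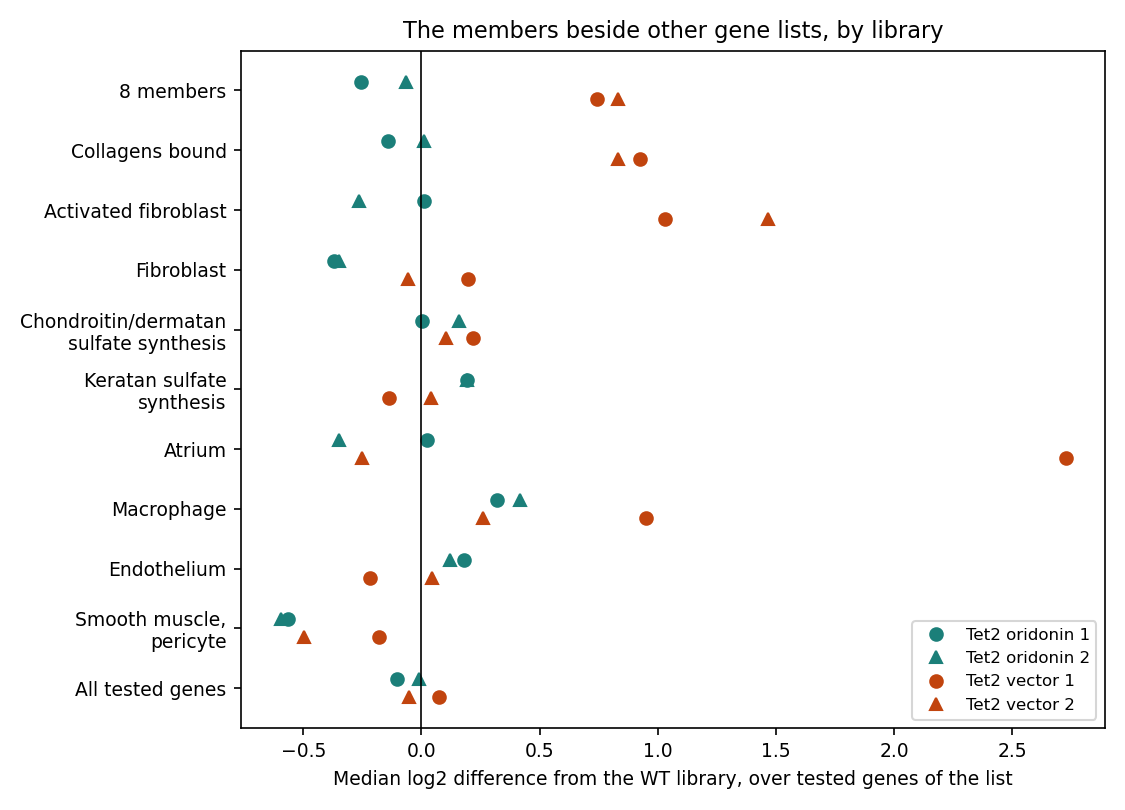
Median log2 difference from the WT library for each Tet2 library, over the tested genes of each list; circles are replicate 1 and triangles replicate 2. The members stand at 0.74 and 0.83 in Tet2 vector and at -0.26 and -0.07 in Tet2 oridonin, close to the collagens, while fibroblast markers stand at 0.20 and -0.06 and at -0.37 and -0.35.

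Other cell types were also checked by their markers. Tendon, cartilage and valve genes, some of which are found with Fmod in dense connective tissue, summed to 96.2 and 119 CPM in Tet2 oridonin, 227 and 228 CPM in Tet2 vector and 161 CPM in WT over 12 genes. Between 0 and 2 of the 12 were at 0 counts. Of that sum Tbx20, a heart transcription factor gene, made up 73.8 and 99.5 CPM in Tet2 oridonin, 157 and 89.9 CPM in Tet2 vector and 132 CPM in WT. Thbs4, a thrombospondin gene, was at 4.24 and 4.73, 11.9 and 70.0, and 7.18 CPM in the same groups. Scx, a tendon transcription factor gene, was at 4.38 and 3.22, 2.19 and 8.35, and 7.53 CPM, with vector values on both sides of WT. The median log2 fold change of 8 tested genes of the list was -1.38 for oridonin over vector and 1.10 for vector over WT, and -0.91 and 0.59 without Tet2 vector replicate 1. Comp, a cartilage and tendon matrix gene, is on that list and on the activated fibroblast list. Comp was at 3.28 and 1.58 CPM in Tet2 oridonin, 20.0 and 45.3 CPM in Tet2 vector and 2.77 CPM in WT. Macrophage markers summed to 325 and 327 CPM in Tet2 oridonin, 574 and 363 CPM in Tet2 vector and 310 CPM in WT, and 0 of 7 were at 0 counts. Their median log2 fold change for oridonin over vector was -0.31, and -0.03 without Tet2 vector replicate 1. Epicardial markers summed to 4.24 to 7.41 CPM in all libraries, with 1 to 5 of 6 at 0 counts. Smooth muscle and pericyte markers summed to 986 and 1017 CPM in Tet2 oridonin, 1195 and 987 CPM in Tet2 vector and 1443 CPM in WT, and endothelial markers to 973 and 1062, 888 and 863, and 947 CPM. Fat cell markers summed to 0.410 and 7.20, 21.4 and 0.522, and 1.12 CPM, and nerve markers to 8.07 and 6.998, 18.9 and 7.30, and 5.98 CPM. The part of any of these cell types in the differences of the members was not tested.

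The genes whose pattern over the 5 libraries was most like the mean pattern of the members were sought among 12272 genes. Family genes and genes with predicted names (Gm or Rik) were left out. The measure was the root mean square difference of log2 CPM, each gene centred on its own mean. For oridonin against vector, Fmod had a log2 fold change of -4.90 and the members a median of -0.90. Fmod thus widens the gap between groups in the mean pattern of the members. The nearest were Gabra3 (0.12), a GABA receptor subunit, Rps18-ps3 (0.14), Gxylt2 (0.17), a xylosyltransferase, Rpl23a-ps3 (0.17) and Cpt1c (0.18). Gxylt2 was at 5.47 and 5.90 CPM in Tet2 oridonin, 12.3 and 13.5 CPM in Tet2 vector and 5.28 CPM in WT. The 2 ribosomal pseudogenes share sequence with active copies, so their counts are uncertain. Nearest to Fmod were A2m (0.61), Dkk3 (1.02) and Comp (1.06). A2m, a protease inhibitor gene, was at 0 and 0 CPM in Tet2 oridonin, 1.80 and 1.04 CPM in Tet2 vector and 0 CPM in WT. Like Fmod, A2m passed the filter on low values through the Tet2 vector libraries alone. Dkk3, one of the atrial markers listed, was at 3.49 and 2.81, 107 and 21.7, and 5.30 CPM.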

How the data were processed

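Poly-A RNA from mouse hearts was sequenced after NEBNext library preparation, per the labels, and mm10 is the build that the submitters' processing notes name. An aligner or counter was not given in the sources used here. Log2 values for 17818 symbols in 5 columns form the authors' only table, and 0 columns lacked a sample.

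From their values, these log2 figures have the form of log2 of counts plus 0.5, scaled to CPM. Each Tet2 column was a weighted mean on the log2 scale, 0.75 for its own library and 0.25 for its group's other replicate. Undoing this made 99.9% of genes whole to within 0.01 of a count, where 9.06% to 10.4% were whole before. The WT column is likewise a 0.75 mix, of 2 near-equal counts (99.8% of 3649 genes at 5 to 60 counts, against at most 38.0% at other weights). That column stayed as deposited and stood for 1 sample. The origin of the mixes was not stated.

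Limma 3.58.1 (R 4.3.3; trend, robust) was fitted to unmixed log2 values of 12734 genes with at least 1 CPM in 2 libraries. Group was the only term, with 2 residual degrees of freedom, and WT was assumed to vary like the Tet2 groups. P-values were adjusted by Benjamini-Hochberg over all 12734 genes. The same code was checked on simulated counts with the same small dispersion for all genes. That check concerns the code, and cannot give the error rate or power in these libraries. A floor of 3 counts is 0.193 to 0.206 CPM. Mitochondrial genome genes took 30.2% and 28.2% of counts in Tet2 oridonin, 26.8% and 29.7% in Tet2 vector and 23.6% in WT (95% Wilson intervals within 0.024 percentage points, counting error only). Lengths came from GENCODE and promoters from RefSeq (32851 entries; 6 of the 8 members matched). Alternatives covered scaling, filters, the prior count, voom, left-out libraries and a replicate block.

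Members, lists and the use of unmixed values were chosen with earlier results of these data known. Named genes were the 8 members, the family genes in the table, up to 4 genes of each list with the smallest unadjusted p for oridonin against vector and up to 2 for vector against WT, nearest neighbours, and the nearest patterns. Tbx20, Scx and Fap, and the genes listed as atrial, were named after their values were seen. Of these, those given are the ones that bear on the members.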

Additional observations from a re-analysis of the deposited data

How the results depend on the processing

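The median log2 fold change of the members kept its direction under all alternatives run. Leaving out 1 Tet2 library in turn, it ran from -1.02 to -0.79 for oridonin against vector, from 0.74 to 0.83 for vector against WT and from -0.26 to -0.07 for oridonin against WT. Under the other alternatives it stayed within 0.28, the SD between replicates, of the main value. Counts of called genes depended on the processing. On the values as deposited, in which replicate differences are shrunk, 76, 2312 and 996 genes were called in the 3 comparisons, and Fmod, Aspn, Ogn, Lum, Dcn and Bgn were among them in the first 2 (limma, adjusted p from 0.00698 to 0.0379 and from 0.00611 to 0.0308). Leaving out 1 library gave 3 to 32, 2 to 107 and 0 to 24 calls, from fits with 1 residual degree of freedom. Fmod was called in the first 2 comparisons and Ogn in the second when either oridonin library was left out, and Aspn in the first without oridonin replicate 2. With only the 2 groups compared, 103 genes were called for vector against WT, Fmod and Ogn among them, and 1 for oridonin against WT. Both of these fits against WT also had 1 residual degree of freedom. On the values as deposited the log2 fold changes of the members were the same as in the main fit, with Fmod at -4.90 for oridonin against vector. Only the differences between replicates had changed. The cause of the shifts in the other counts of called genes was not tested.

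The title numbers do not show that replicates are paired, and replicate 1 minus replicate 2 correlated at -0.30 across 12734 genes between oridonin and vector. With the number as a replicate block, the fit had only 1 residual degree of freedom. It called 9, 10 and 6 genes, Fmod and Aspn among the first (limma, adjusted p = 0.00168 and 0.0420).

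Leaving out 1 library, Podn ran from -0.95 to 0.18 for oridonin against vector and from -0.46 to 0.66 for vector against WT, reversed without Tet2 vector replicate 1. For oridonin against WT, Bgn ran from -0.15 to 0.025, Lum from -0.22 to 0.010 and Fmod from -1.20 to 0.25, reversed without oridonin replicate 1. Bgn (0.048) and Lum (0.0038) also reversed there with genes of the mitochondrial genome left out of the total. That scaling moved the median gene by 0.11 there. Members with both oridonin libraries on 1 side of WT numbered 5 of 8, where 73.6% of tested genes do so, and 8 on deposited values, where 86.2% do. Without mitochondrial genome genes in the total they numbered 4. The share of tested genes was not computed there, so that 4 is not a result about the members. With 1 library a side the count of such members has no meaning and was not made. List medians without Tet2 vector replicate 1 were added after seeing the data. Depth limits Fmod, Omd, Epyc and A2m, whose lowest counts lie at or below the floor of 3.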

Other observations

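A list of other proteoglycans, many of which sit at the cell surface or fill the space around cells, held genes that differed in both directions. It also holds Bcam, an adhesion glycoprotein gene, among those higher in Tet2 vector than in WT. Of 19 tested genes, 7 were higher in Tet2 vector than in WT, all 7 without overlap, where 35.4% of all tested genes are. The other 12 were lower, 4 of them without overlap, where 32.3% of all tested genes are (limma, 0 past the FDR). The median log2 fold change was -0.10, and whether it differs from that of the small proteoglycans was not tested. Vcan, a large chondroitin sulfate proteoglycan, was at 9.71 and 14.3 CPM in Tet2 oridonin, 29.9 and 12.3 CPM in Tet2 vector and 8.38 CPM in WT. Vcan was named after its values were seen. Prg4, lubricin, was at 15.6 and 15.4 CPM in Tet2 oridonin, 21.5 and 22.8 CPM in Tet2 vector and 18.1 CPM in WT. Gpc1, a glypican tethered to the cell surface, was at 322 and 295 CPM in Tet2 oridonin, 303 and 297 CPM in Tet2 vector and 587 CPM in WT. Spock2, a testican, was at 14.5 and 12.4 CPM in Tet2 oridonin, 10.9 and 9.59 CPM in Tet2 vector and 41.2 CPM in WT. Gpc1 and Spock2 were below WT in all 4 Tet2 libraries. For oridonin against vector, 13 of 19 were lower, where 7614 of 12734 tested genes were, with a median of -0.14. Without Tet2 vector replicate 1, 8 of 19 were lower, with a median of 0.05. Sdc1, a syndecan, was at 5.74 and 4.39 CPM in Tet2 oridonin, 7.53 and 9.85 CPM in Tet2 vector and 9.26 CPM in WT.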
